A study of Mus musculus with 4 samples.

Results

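The data described here are the RNA levels of 10 mouse genes of the Wnt signalling pathway, chosen by symbol from a table of 24421 genes: the ligands Wnt10b, Wnt5a, Wnt7b and Wnt4, the receptors Fzd7 and Lrp6, the transcription factor gene Lef1, and the feedback inhibitors Axin2, Notum and Dkk1. Polyadenylated RNA of 4T07, a cell line from a mammary carcinoma of a Balb/cfC3H mouse, was sequenced in 4 libraries: 2 of cells with the genotype Six2 Overexpression and 2 of cells with the genotype control. All cells grew in the same medium with calf serum and were collected 48 h after plating. The labels name no vector and do not tell whether either line was 1 clone or a pool. Values are RPKM, reads scaled to gene length and library read total, so levels can be set side by side between genes. Whole reads behind each value were recovered from the spacing of the RPKM values, with read totals of 49910629 and 81524250 in the Six2-labelled libraries and 41881864 to 43110985 in the control libraries.

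Wnt ligands are secreted glycoproteins that carry a lipid needed for receptor binding. They engage a Frizzled receptor together with Lrp5 or Lrp6, which stops the Axin and Apc complex from marking beta-catenin for destruction, so that beta-catenin accumulates and switches on genes with TCF and LEF factors. Several of those target genes feed back on the pathway: Axin2 rebuilds the destruction complex, Notum removes the lipid from Wnt proteins outside the cell, and Dkk1 blocks Lrp6. In the mammary gland Wnt10b is known as an oncogene found at insertion sites of mouse mammary tumour virus, and Wnt4 acts downstream of progesterone.

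Six2 itself was read 3 times in Six2 replicate 1 and not at all in the other 3 libraries, so that the RNA values do not show the overexpression named in the labels; how reads of an introduced coding sequence would have been counted is not given. The groups are therefore called by their labels. Of 6 epithelial markers, the simple keratin genes Krt8 and Krt18 lay between 389 and 1059 RPKM in all libraries with overlapping groups. The other 4 were lower in both Six2-labelled libraries than in both control libraries, as were 25.5% of all genes tested. Cdh1, the E-cadherin gene, was at 0.186 and 0.103 RPKM in the Six2-labelled libraries, against 14.6 and 8.40 RPKM in control (limma-trend adjusted p = 0.0592). Krt7 was at 0.467 and 0.634 RPKM, against 10.8 and 8.67 RPKM in control, and passed over all genes (limma-trend adjusted p = 0.0397). With a filter of 5 RPKM, which Krt7 met, and with no filter, 0 genes were called lower. Krt19 was at 0.802 and 0.464 RPKM, against 8.76 and 4.26 RPKM in control (limma-trend adjusted p = 0.119), and Epcam, under 1 RPKM throughout and not tested, at 0.214 and 0.0833 RPKM, against 0.720 and 0.684 RPKM in control. The 8 mesenchymal markers, of which Col3a1 and Lum were at 0 in all libraries, summed to 1721 and 1735 RPKM in the Six2-labelled libraries, against 1977 and 1966 RPKM in control. Among them Vim, at 1300.0 to 1553 RPKM, had overlapping groups, and Fn1, the fibronectin gene, was at 287 and 206 RPKM, against 667 and 407 RPKM in control (limma-trend adjusted p = 0.204). All 6 leukocyte and all 4 endothelial markers looked up were under 1 RPKM. The 6 basal markers, all under 1 RPKM, summed to 0.00935 and 0.0296 RPKM in the Six2-labelled libraries, against 0.773 and 0.655 RPKM in control. The 3 adipocyte markers summed to 0.235 and 0.269 RPKM, against 1.21 and 1.23 RPKM in control. Most of each control sum came from 1 gene: Acta2, at 0.586 and 0.566 RPKM, and Fabp4, at 1.19 and 1.23 RPKM. The groups of 3 of the basal and 2 of the adipocyte markers overlapped. The part of these markers in the Wnt values was not tested. Whether replicates were separate cultures is not stated, so the spread behind every p-value may be a technical one. In bulk RNA, fewer cells that express a gene and less RNA in each cell cannot be told apart.

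Of the 10 genes, 5 reached 1 RPKM in at least 2 libraries and were tested: Wnt10b, Wnt7b, Lrp6, Fzd7 and Notum. Axin2 was detected well below that level, and Wnt5a, Wnt4, Lef1 and Dkk1 were at or next to 0. Wnt10b was the member that had the largest difference among these 5 and was lower in the Six2-labelled libraries, at 7.71 ± 1.86 RPKM, against 26.2 ± 9.33 RPKM in control (SD, n = 2 each). Axin2 was low in the same libraries too, at 0.0876 ± 0.0424 RPKM, against 0.407 ± 0.226 RPKM in control (SD, n = 2 each). Wnt7b, Fzd7 and Notum had overlapping groups. None of the 5 passed limma-trend over all 10654 genes tested with Benjamini-Hochberg adjustment at 0.05, where 0.113% of all genes passed. At an unadjusted p under 0.05 the count was 1 of 5, against 17.0% of all genes tested. The limma-voom fit on recovered reads likewise called 0 of the 5, and only 3 higher and 10 lower of all 10650 genes in that fit. The groups did not overlap for 2 of the 5, Wnt10b and Lrp6, against 47.4% of all genes. With the replicate number as a block, 3 of the 5, Wnt10b, Lrp6 and Wnt7b, passed with limma-trend, against 43.5% of all genes tested. The labels do not say that this number pairs the samples.

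**Figure D1:**
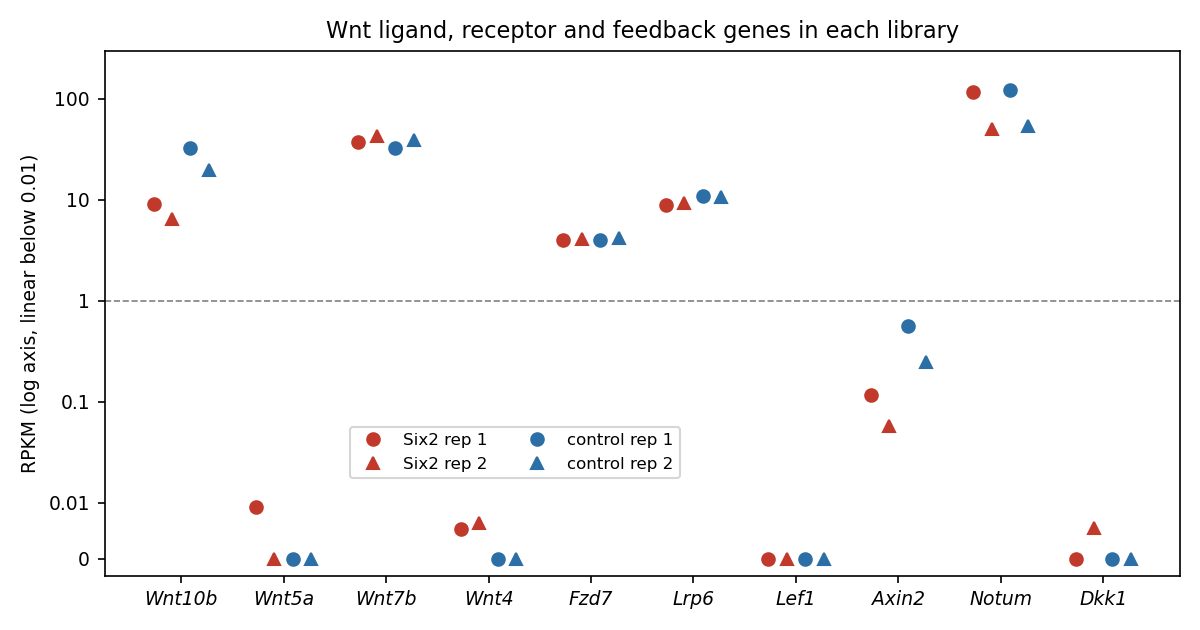
RPKM of the 10 genes in each library (log axis, linear below 0.01), with Six2-labelled libraries in red and control libraries in blue, replicate 1 as circles and replicate 2 as triangles. The dashed line marks 1 RPKM, the level for testing, and above it the red symbols of Wnt10b and, by a small margin, Lrp6 lie below the blue ones, as do those of Axin2 under it.

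The promoters of the 2 members with the lowest ratio of Six2-labelled to control RNA are shown, since they are the regions that control where these transcripts start. They come from RefSeq (GRCm38.p6) and run from 250 bases before to 50 bases after the start, 5′ to 3′ on the gene's strand. Capitals mark the TCF/LEF core letters CTTTG, searched on both strands. The Wnt10b window is chr15:98778101-98778400 (minus strand) and the Axin2 window chr11:108920099-108920398 (plus strand).
Wnt10b: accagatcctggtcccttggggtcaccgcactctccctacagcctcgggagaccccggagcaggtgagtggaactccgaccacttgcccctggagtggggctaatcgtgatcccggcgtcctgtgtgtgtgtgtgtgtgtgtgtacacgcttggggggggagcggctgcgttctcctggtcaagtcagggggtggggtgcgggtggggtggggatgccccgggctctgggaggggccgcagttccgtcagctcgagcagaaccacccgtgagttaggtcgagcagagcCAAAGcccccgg
Axin2: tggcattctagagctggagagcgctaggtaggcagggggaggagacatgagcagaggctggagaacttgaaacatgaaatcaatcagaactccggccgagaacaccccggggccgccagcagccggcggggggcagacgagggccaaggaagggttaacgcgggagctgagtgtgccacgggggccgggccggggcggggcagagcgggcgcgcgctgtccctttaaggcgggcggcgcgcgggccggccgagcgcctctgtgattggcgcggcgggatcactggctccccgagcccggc
The core letters occurred 1 time in the Wnt10b window, on the opposite strand within the 50 bases after the start, and 0 times in the Axin2 window, while 53.9% of all 32851 promoter windows in the table held them. Both windows are rich in G and C, at 66.3% and 70.0%, against a median of 52.7% over all windows. Of the 10 members, 6 had at least 1 window in that table.

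Among the ligands, Wnt10b (ENSMUSG00000022996.15, GRCm38 chromosome 15, 98770712 to 98778150, minus strand, protein coding) encodes a ligand that drives beta-catenin signalling. It was at 9.02 and 6.40 RPKM (1003 and 1162 reads) in Six2 replicates 1 and 2, against 32.8 and 19.6 RPKM (3150 and 1830 reads) in control replicates 1 and 2. Both Six2-labelled libraries lay below both control libraries, and replicate 1 was the higher of the pair in each group. The ratio of means, Six2 over control, was 0.294. On the log2(RPKM + 1) scale the difference was -1.62 (SE 0.298, 95% interval -2.42 to -0.81), while 1.90% of all genes tested differed by -1 or below. It did not pass over all genes (limma-trend adjusted p = 0.142). Leaving out 1 library at a time kept the difference between -1.97 and -1.26. The epithelial markers Cdh1, Krt7, Krt19 and Epcam were lower in the same libraries, while the groups of the more abundant Krt8 and Krt18 overlapped. The part of these markers in the Wnt10b values was not tested.

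Wnt7b (ENSMUSG00000022382.15, chromosome 15, 85535437 to 85582473, minus strand) encodes a ligand known from lung and kidney development. It was at 37.2 and 43.3 RPKM in Six2 replicates 1 and 2, against 32.6 and 39.5 RPKM in control replicates 1 and 2. The groups overlapped, and the difference of 0.16 (SE 0.146) had a 95% interval of -0.23 to 0.55 (limma-trend adjusted p = 0.652). Both ligand genes lie on chromosome 15, whose 443 tested genes had a median difference of -0.04.

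Wnt5a, which encodes a ligand best known for beta-catenin-independent signalling, had 2 reads in Six2 replicate 1 and 0 reads in Six2 replicate 2 and both control libraries. Wnt4 had 1 and 2 reads in the Six2-labelled libraries and 0 reads in both control libraries. A count of 0 allows up to 3 reads, which on Wnt5a is 0.0159 and 0.0164 RPKM in the control libraries and on Wnt4 is 0.0182 and 0.0187 RPKM. Neither ligand was thus detectable above the limit at this depth, and no fold is given. Such limits cover counting error only.

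Set beside all 19 Wnt ligand genes, of which 6 were at 0 in every library, Wnt7b and Wnt10b together made up 83.8% to 86.2% of the summed ligand RPKM in each of the 4 libraries. The sum was 54.6 and 59.3 RPKM in the Six2-labelled libraries, against 75.8 and 68.6 RPKM in control. Wnt10b took 16.5% and 10.8% of it in the Six2-labelled libraries, against 43.3% and 28.6% in control. Without Wnt10b the sum was 45.6 and 52.9 RPKM in the Six2-labelled libraries, against 43.0 and 49.0 RPKM in control, and these groups overlapped. The ratio of Wnt10b to Wnt7b within a library was 0.242 and 0.148 in the Six2-labelled libraries, against 1.01 and 0.497 in control (two-sided exact permutation p = 0.333, the smallest that 2 against 2 libraries allow).

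**Figure D2:**
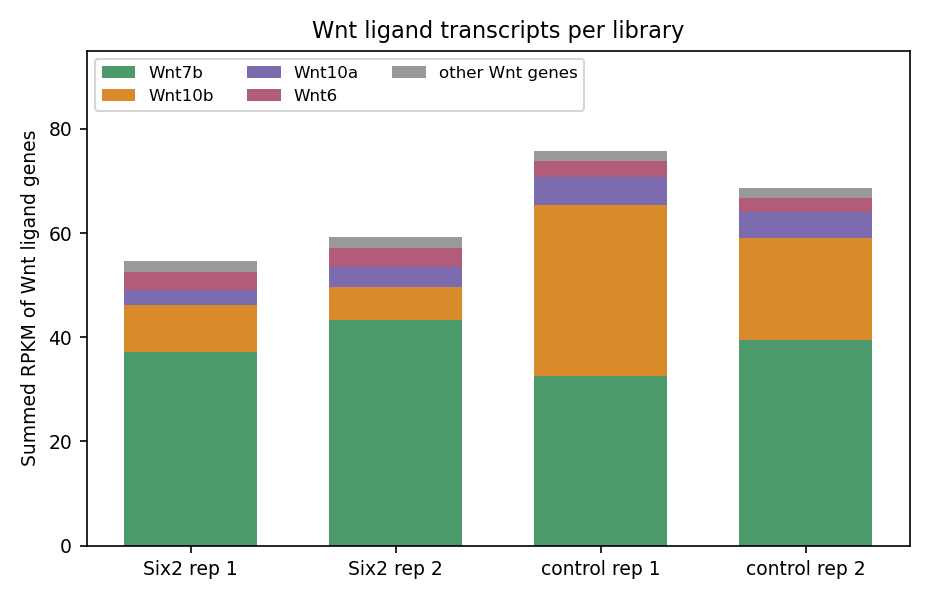
Summed RPKM of the 19 Wnt ligand genes in each library, stacked by gene, with the Six2-labelled libraries on the left. The Wnt10b segment is 9.02 and 6.40 RPKM in the Six2-labelled libraries and 32.8 and 19.6 RPKM in control, while the Wnt7b segment lies between 32.6 and 43.3 RPKM in all 4.

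The other tested ligands were Wnt10a, the closest relative of Wnt10b, and Wnt6. Wnt10a was at 2.83 and 3.80 RPKM in the Six2-labelled libraries, against 5.29 and 4.93 RPKM in control, a log2(RPKM + 1) difference of -0.51 (limma-trend adjusted p = 0.231). Wnt6 was at 3.48 and 3.61 RPKM, against 3.13 and 2.71 RPKM in control (difference 0.21, adjusted p = 0.453 in the same limma-trend fit). Wnt7a, picked out after its values were seen, had 0 reads in both Six2-labelled libraries, against 25 and 18 reads in control. The pooled control value of Wnt7a, 0.319 RPKM, was 22.2-fold that of 3 reads over the Six2-labelled libraries together. That figure leaves out the counting error of the control reads and the spread between libraries. Wnt7a was below the level for testing, at 0.365 and 0.271 RPKM in the control libraries.

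Among the receptors, Fzd7 (ENSMUSG00000041075.8, chromosome 1, 59482424 to 59486955, plus strand) encodes a Frizzled receptor, and Lrp6 (ENSMUSG00000030201.15, chromosome 6, 134446476 to 134566965, minus strand) the coreceptor. Fzd7 was at 4.04 and 4.12 RPKM in the Six2-labelled libraries, against 4.01 and 4.15 RPKM in control. The group means were 4.08 ± 0.0534 RPKM and 4.08 ± 0.0938 RPKM in control (SD, n = 2 each), with a 95% interval of -0.29 to 0.29 for the log2(RPKM + 1) difference. The 597 tested genes of chromosome 1 had a median difference of 0.32, and Fzd7 differed by -0.31 once chromosome medians were removed (limma-trend adjusted p = 0.375). Lrp6 was at 8.97 and 9.31 RPKM in the Six2-labelled libraries, against 10.9 and 10.7 RPKM in control. The Lrp6 groups did not overlap, and the replicates lay closer together than the groups, but the difference of -0.22 (SE 0.0972, 95% interval -0.48 to 0.04) did not pass (limma-trend adjusted p = 0.355). With chromosome medians removed it was -0.14.

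Of the transcription factor and feedback genes, Lef1 (chromosome 3) was listed at 0 in all 4 libraries. Its gene length cannot be recovered from zeros, so no limit in RPKM is given. Dkk1 (chromosome 19), the Lrp6 antagonist, had 1 read in Six2 replicate 2 and 0 reads in the other libraries. All 15 housekeeping genes looked up were at 16.3 RPKM or more. Genes this abundant cannot show whether a low gene such as Lef1 or Dkk1 was missed.

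Axin2 (ENSMUSG00000000142.15, chromosome 11, 108920349 to 108950783, plus strand) is a widely used readout of beta-catenin signalling. It had 25 and 20 reads in Six2 replicates 1 and 2, or 0.118 and 0.0576 RPKM, against 104 and 44 reads, or 0.567 and 0.247 RPKM, in control replicates 1 and 2. Both Six2-labelled libraries lay below both control libraries, although the deepest library, Six2 replicate 2, had the fewest reads. The ratio of means was 0.215, on 45 reads in the Six2-labelled libraries and 148 in control. Axin2 was below the level for testing, and the difference of -0.36 on the log2(RPKM + 1) scale understates a change at such low values. In alternatives that take it in, the adjusted p was 0.344 with no filter, 0.264 with no filter and a pseudocount of 0.1, and 0.198 with limma-voom on genes of 10 or more reads, where the log2 difference was -2.23. The last 2 were added after the data had been seen.

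Notum (ENSMUSG00000042988.10, chromosome 11, 120653788 to 120661175, minus strand), the Wnt deacylase, was the most abundant member in each library and ranked 887 of the 24421 genes by mean RPKM. It was at 118 and 49.8 RPKM in Six2 replicates 1 and 2, against 123 and 54.3 RPKM in control replicates 1 and 2. The groups overlapped almost fully, while replicate 1 was far above replicate 2 in each group. The replicates differed by 1.23 on the log2(RPKM + 1) scale in the Six2-labelled libraries and by 1.17 in control, against a group difference of -0.09 (SE 0.58, limma-trend adjusted p = 0.957). The 95% interval of that difference ran from -1.65 to 1.47, in a fit that leaves the replicate number out and so holds the spread between replicates. With the replicate number as a block the difference was again -0.09 (limma-trend adjusted p = 0.183). Only 0.46% of the genes tested, 49 in all, were at least 2-fold apart between replicates on that scale in both groups and in the same direction. Krt8 and Krt18 also stood higher in replicate 1 of each group. Krt8 was at 972 and 607 RPKM in Six2 replicates 1 and 2, against 1059 and 742 RPKM in control replicates 1 and 2, and made up most of the sum of the 6 epithelial markers together with Krt18. That sum was 1664 and 998 RPKM in Six2 replicates 1 and 2, against 1894 and 1238 RPKM in control replicates 1 and 2. Krt7 was the higher in replicate 2 of the Six2-labelled libraries, and the part of these markers in the Notum values was not tested. In the annotation 918 of the 2408 exonic bases of Notum are shared with antisense genes on the opposite strand, as are 324 of 4898 in Wnt7b and 209 of 5506 in Axin2, and the strand setting of the counting is not given.

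**Figure D3:**
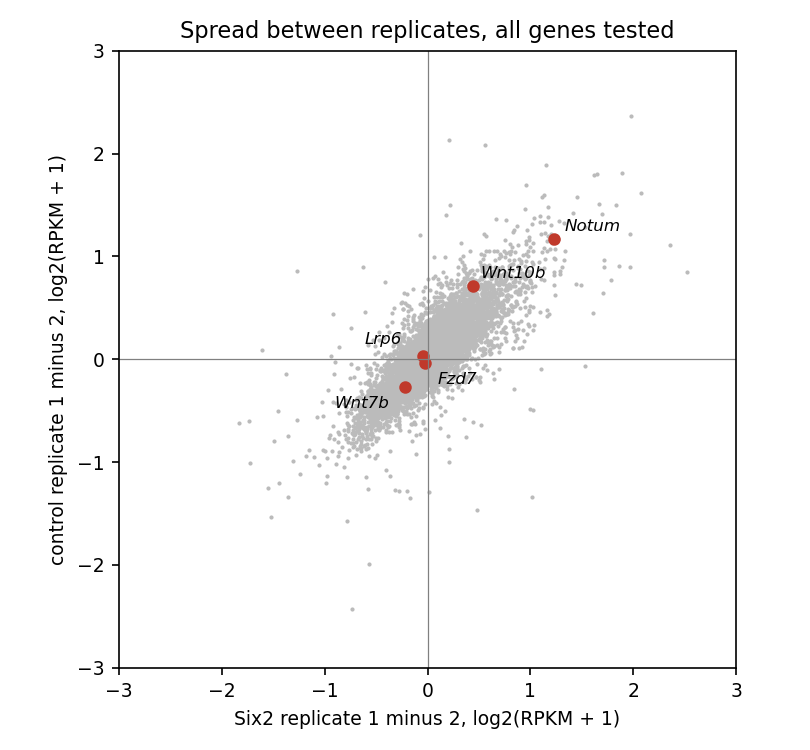
Difference between replicates 1 and 2 on the log2(RPKM + 1) scale in the Six2-labelled libraries (horizontal) and the control libraries (vertical) for the 10654 genes tested, in grey, with the 5 tested members in red. Notum lies at 1.23 and 1.17, far from the centre, whereas Fzd7 and Lrp6 lie next to 0.

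Per length, the order of the levels was Notum, Wnt7b, Lrp6, Wnt10b and Fzd7 in the Six2-labelled libraries, and Notum, Wnt7b, Wnt10b, Lrp6 and Fzd7 in control. Neighbours whose libraries overlapped were Lrp6 and Wnt10b in the Six2-labelled libraries, and Wnt7b and Wnt10b in control. Axin2 came next, below 1 RPKM in every library. The genes whose pattern over the 4 libraries was most like that of Wnt10b were Celsr1, Cyp1b1 and Krtcap3, at distances of 0.0676, 0.125 and 0.175. Distances were Euclidean, on centred log2(RPKM + 1) values, over all genes tested. That scale understates changes of low genes, and Celsr1 was below 1 RPKM in both Six2-labelled libraries.

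The wider pathway was described with 9 gene lists, holding 124 genes in the table, of which 69 were tested, 25 were at 0 in all libraries, and 114 were not among the 10 members. Of the 69, 0 passed over all genes with limma-trend, with a smallest adjusted p of 0.102, where 0.113% of all genes tested did. With limma-voom on recovered reads 0 passed as well, where 3 higher and 10 lower of 10650 genes did. At an unadjusted p under 0.05, 3 were higher and 13 lower, or 23.2% in all, against 7.36% higher, 9.66% lower and 17.0% in all over the genes tested. The groups did not overlap for 35 of the 69, or 50.7%, close to the 47.4% of all genes, with 12 higher and 23 lower, where 21.9% and 25.5% of all genes were. The median log2(RPKM + 1) difference was -0.06, against -0.01 over all genes tested.

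Of the genes needed to make and receive Wnt proteins, Porcn, the enzyme that adds the lipid, was at 1.60 and 1.65 RPKM in the Six2-labelled libraries, against 4.65 and 2.46 RPKM in control (difference -0.76, limma-trend adjusted p = 0.274). Wls, the carrier that brings Wnt proteins to the cell surface, was at 77.2 and 51.8 RPKM, against 74.2 and 48.8 RPKM in control, with replicate 1 the higher in both groups as for Notum. Of 9 tested receptors and coreceptors, Ptk7, a pseudokinase coreceptor, had the lowest difference, at -0.90 (limma-trend adjusted p = 0.141). Ptk7 was at 24.9 and 22.1 RPKM in the Six2-labelled libraries, against 50.6 and 39.2 RPKM in control. Fzd2 differed by -0.18, Fzd5 by 0.31 and Ryk, the most abundant of these receptors, by 0.02. Of the R-spondin receptors, Lgr6 was at 62.5 and 59.8 RPKM, against 50.4 and 46.2 RPKM in control (difference 0.34, limma-trend adjusted p = 0.221). Lgr4 differed by -0.45 with overlapping groups, Lgr5 was at 0 in all libraries, and the R-spondin genes themselves had at most 13 reads.

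Among 6 tested inhibitors, Notum included, Sfrp1, a secreted Wnt-binding protein gene, was at 2.28 and 2.22 RPKM in the Six2-labelled libraries, against 2.97 and 3.58 RPKM in control (difference -0.39, limma-trend adjusted p = 0.26). Apcdd1 differed by -0.34, Tpbg by -0.13 and Znrf3, which encodes a ligase that removes Frizzled receptors, by -0.13. Over 18 tested intracellular genes, differences ran from -0.32 to 0.22. Csnk1e, Dvl3, Axin1 and Dvl1 had the largest in size, at -0.32, -0.31, -0.29 and -0.28, and Ctnnb1, which encodes beta-catenin, was at 274 and 228 RPKM in the Six2-labelled libraries, against 325 and 238 RPKM in control (difference -0.16).

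Lef1 being at 0, the TCF/LEF genes with reads were Tcf7, Tcf7l1 and Tcf7l2. Tcf7l1, mostly a repressor of target genes, was at 3.56 and 3.43 RPKM in the Six2-labelled libraries, against 2.15 and 2.34 RPKM in control (difference 0.47, limma-trend adjusted p = 0.18). Tcf7, itself a beta-catenin target, was at 0.752 and 0.718 RPKM, against 1.51 and 1.34 RPKM in control (difference -0.48, limma-trend adjusted p = 0.2). The groups of both genes lay apart, in opposite directions. Groups did not overlap for 7 of the 10 tested genes of this list, 4 higher and 3 lower, against 47.4% of all genes tested. Among cofactors, Pygo2 differed by 0.35, Tle1 by -0.34 and Bcl9l by 0.10.

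By sign alone, the target gene list gave no single direction. Of 11 tested targets, 7 lay below and 4 above 0, with a median of -0.09. The groups did not overlap for 0 higher and 3 lower targets, against 21.9% higher and 25.5% lower over all genes tested. At an unadjusted limma-trend p under 0.05, 0 were higher and 2 lower, against 7.36% and 9.66% of all genes tested. Wisp1, a matricellular protein gene of the CCN family, had the lowest difference, at -1.04 (limma-trend adjusted p = 0.102). Wisp1 was at 0.327 and 0.425 RPKM in the Six2-labelled libraries, against 1.95 and 1.70 RPKM in control. Wisp2 differed by -0.56 with overlapping groups. Fosl1, an AP-1 factor gene, differed by 0.26, and Ccnd1, the cyclin D1 gene and the most abundant of these targets, was at 588 and 673 RPKM, against 592 and 661 RPKM in control. Several target genes often used as readouts, Lgr5, Nkd1 and Bambi besides Lef1, were at 0 in all libraries.

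**Figure D4:**
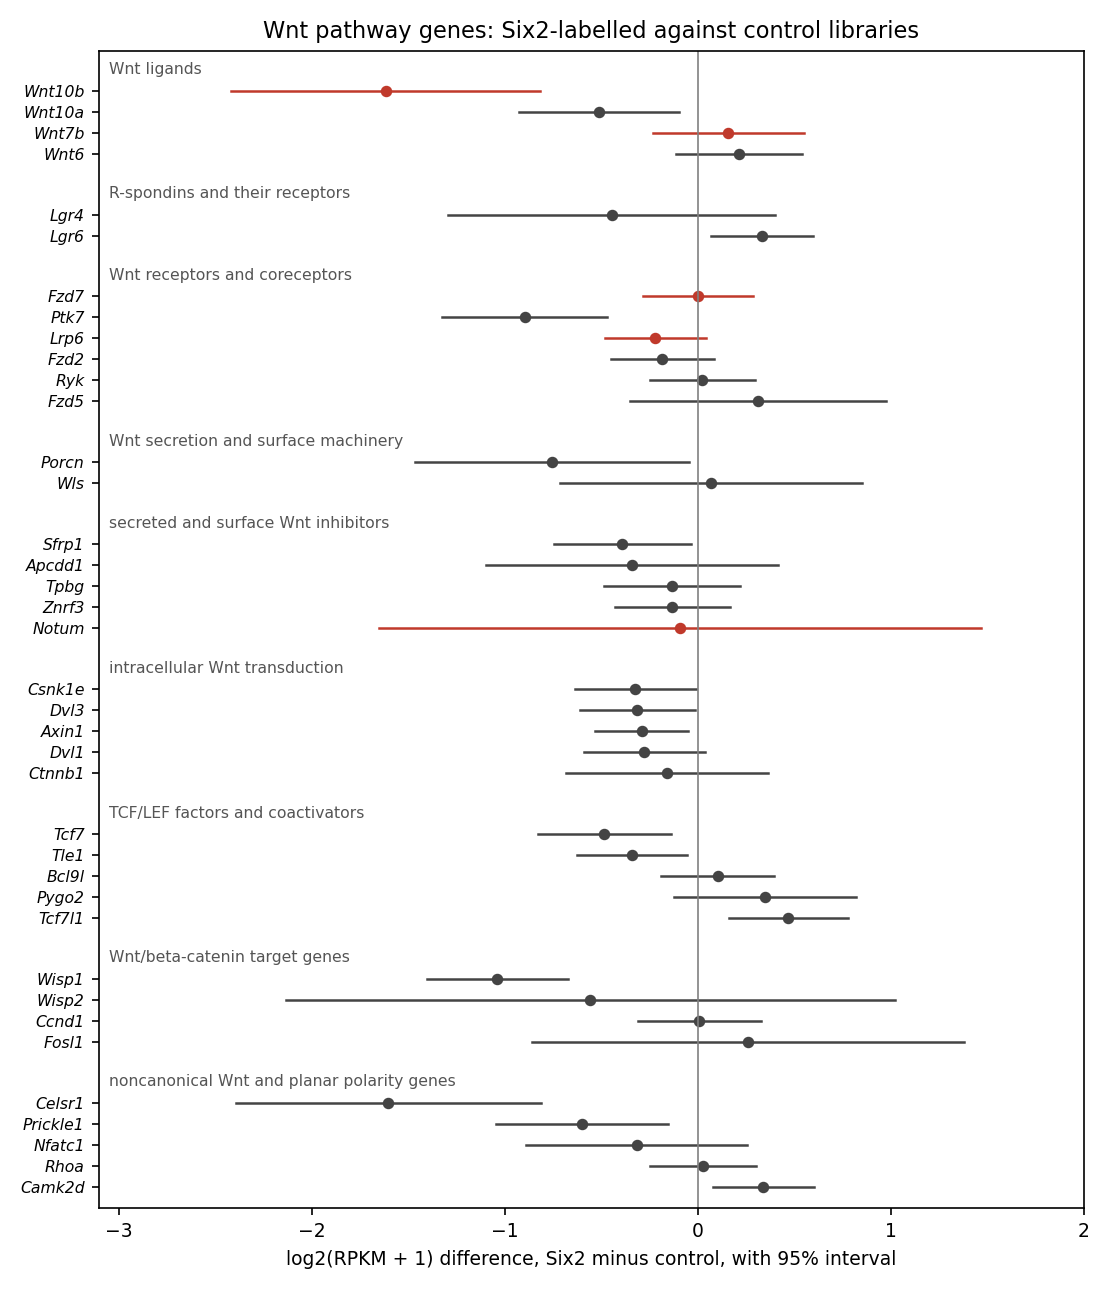
Difference in log2(RPKM + 1), Six2-labelled minus control libraries, with unadjusted 95% intervals from limma-trend, for tested members (red) and the other pathway genes named by a fixed rule (dark grey), grouped by list. Wnt10b at -1.62, Celsr1 at -1.60 and Wisp1 at -1.04 lie farthest to the left, and 0 of the genes drawn passed after adjustment.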

How the data were processed

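RNA-seq of 2 Six2-labelled and 2 control 4T07 samples was grouped by sample titles. The authors deposited RPKM values, per the file name; the submitters' processing notes name TopHat2 2.1.1, Bowtie2, HTSeq 0.8.0, SAMtools 1.5, Picard 2.9.4 and the builds GRCm38 and mm10. Annotation, gene lengths, strand setting and handling of shared reads are not given in the sources used.

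Whole reads were recovered from RPKM steps within 0.001 reads for 99.97% of 14459 genes above 0 in 3 or more libraries; a factor common to reads and length cannot be seen. limma 3.58.1 (R 4.3.3) fitted log2(RPKM + 1) on group with a variance trend, over genes that reached 1 RPKM in at least 2 libraries, two-sided. Fold changes on that scale understate changes of low genes. The fit was also run on simulated reads with a fixed dispersion and no shared replicate effect. These data differ from that setting, so no conclusion is drawn from the simulation. The rule for named genes took all members, Six2 and, from each list, called genes, the 4 largest differences and the most abundant gene. Members and lists were chosen with earlier results of these data known. Coordinates are from GENCODE (GRCm38). Alternatives covered pseudocount, filter, scaling, variance trend, voom, chromosome medians, left-out libraries and a replicate block. The 10 members were in the table; p-values were never adjusted over members alone.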

Additional observations from a re-analysis of the deposited data

How the results depend on the processing

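Wnt10b stayed lower, Wnt7b higher and Lrp6 lower in the Six2-labelled libraries under all 16 alternatives. For Wnt10b, Lrp6 and Axin2, whose groups did not overlap, leaving out a library could not change the sign. The Wnt7b groups overlapped. With 1 library left out at a time, the log2 difference ran from -1.97 to -1.26 for Wnt10b, from 0.02 to 0.29 for Wnt7b, from -0.24 to -0.20 for Lrp6, from -0.0189 to 0.0188 for Fzd7, from -0.70 to 0.53 for Notum, and from -0.53 to -0.20 for Axin2. Over all alternatives but the replicate block the adjusted p of Wnt10b lay between 0.0713 and 0.28. Notum turned to 0.53 without Six2 replicate 2 and to 0.49 without control replicate 1. Leaving out 1 library makes the replicate numbers unbalanced between the groups, and Notum was far higher in replicate 1 of each group. Fzd7, at -2.1e-05 with all libraries, turned to 0.0156 with relative log expression factors, 0.0175 with trimmed mean factors, 0.00149 with voom on recovered reads, 0.00151 with voom on genes of 10 or more reads, 0.0107 without Six2 replicate 1 and 0.0188 without control replicate 2.

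Over all genes, 3 were called higher and 9 lower. The counts were 1 and 0 with a filter of 5 RPKM, 0 and 0 with no filter, with no filter and a pseudocount of 0.1, and with voom on genes of 10 or more reads, and 31 were lower with no variance trend. Leaving out Six2 replicate 2 gave 18 higher and 50 lower genes, and leaving out Six2 replicate 1 gave 4 higher and 31 lower. Leaving out control replicate 2 gave 6 higher and 25 lower, whereas leaving out control replicate 1 gave 2 higher and 9 lower. The cause was not tested. The replicate numbers are not said to pair the samples, and 2 pairs cannot show it, though replicate differences correlated across genes at r = 0.818. With the replicate number as a block, 2133 genes were called higher and 2506 lower, 10 and 21 of them in the Wnt pathway lists. That is 44.9% of the tested pathway genes, close to the 43.5% of all genes tested. Of the 5 tested members, Wnt10b (-1.62, adjusted p = 1.9e-05), Lrp6 (-0.22, 0.0252) and Wnt7b (0.16, 0.0385) passed with limma-trend. Depth limits Wnt4, Wnt5a and Dkk1, whose reads are few. Axin2, with 45 reads in the Six2-labelled libraries and 148 in control, was left out of the main fit by the RPKM filter.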

Other observations

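Among planar cell polarity and other beta-catenin-independent pathway genes, 10 of 14 were tested and 0 passed over all genes with limma-trend, where 0.113% of all genes tested did. At an unadjusted p under 0.05, 1 was higher and 2 lower, against 7.36% higher and 9.66% lower over all genes tested. Celsr1, an atypical cadherin gene of planar polarity, was at 0.916 and 0.37 RPKM in Six2 replicates 1 and 2, against 5.13 and 2.95 RPKM in control replicates 1 and 2. Its difference of -1.60 on the log2(RPKM + 1) scale (limma-trend adjusted p = 0.142) was next to that of Wnt10b. That scale understates changes of low genes. The ratio of means, Six2 over control, was 0.159 for Celsr1 and 0.294 for Wnt10b. Prickle1, which encodes a cytoplasmic polarity protein, was at 3.51 and 4.55 RPKM in the Six2-labelled libraries, against 7.23 and 5.97 RPKM in control (difference -0.60). Camk2d, a calcium-dependent kinase gene, was at 12.9 and 12.2 RPKM, against 9.72 and 9.68 RPKM in control (difference 0.34). Nfatc1 differed by -0.32, and Rhoa, the most abundant gene of the list, by 0.03.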
